A study of Homo sapiens with 12 samples.

Results

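The cytosolic ribosomal protein genes encode the proteins of the ribosome that works in the cytoplasm. They were taken from the symbols of the deposited table as every RPL and RPS gene with a plain number, with or without a final A, together with RPS4X, RPL36AL, RPSA and the P-stalk genes RPLP0, RPLP1 and RPLP2. Pseudogene symbols were left out. The rule found 79 entries for 78 genes, 47 of the large subunit and 31 of the small subunit, out of 14225 named genes tested. RPS16 had a further entry at 0 in all 12 libraries, and all 78 genes passed the minimum level.

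Each ribosome holds a single copy of nearly every one of these proteins, so their mRNAs are made in similar amounts and are among the most abundant of a growing cell. Most of them begin with a 5′ terminal oligopyrimidine (TOP) tract, a run of C and T (U in the mRNA) that starts at the cap and through which mTOR and the RNA-binding protein LARP1 control their translation and stability. Surplus free ribosomal proteins are degraded, and the 5S RNP proteins RPL5 and RPL11 can bind MDM2 and so raise p53 when ribosome assembly is disturbed.

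The libraries come from TC-71 cells, an established human line of Ewing sarcoma with the fusion protein EWS-FLI1, which partners the RNA helicase DHX9. Of 4 groups of 3 libraries, the first was treated with YK-4-279, a compound made against that partnership, and the second with DMSO, both labelled WT and both for 16 hours, at a drug dose that the labels give as 2 mM, a unit that could not be checked here and may be a micromolar dose with its symbol lost. The third was transfected against DHX9 (siDHX9) and the fourth with a scrambled control, both by a double pulse of reverse transfection with a lipid reagent and collected at 48 hours. The labels' protocols speak of siRNAs and the design text of shRNAs, and 3 biological replicates of this single line make up each group, so the spread is that between cultures. The drug and transfection arms differ in time, reagent and handling, so the scrambled and DMSO groups differ in all of these at once.

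The libraries held 38568983 to 65547726 counted reads. Levels are the deposited read counts normalised with DESeq size factors, and changes are log2 fold changes ± SE of log2(value + 1) from limma. A gene is said to have risen or fallen at a two-sided limma p under 0.05 after Benjamini-Hochberg adjustment over the 14225 genes, and adjusted p below means this value. The entry that joins DHX9 with its neighbour NPL held 19342, 21178 and 21304 counts in siDHX9 libraries, against 30287, 33422 and 34357 in scrambled libraries (log2 −0.66 ± 0.07, adjusted p = 4.54e-05). All 5 Ewing sarcoma markers examined were measured, with CD99 at a median of 27325 counts. The 3 epithelial markers summed to at most 22.0 counts in any library. The 4 leukocyte markers summed to 46.5 to 68.5 with YK-4-279 and 9.0 to 17.9 in DMSO, and to 12.8 to 34.1 in siDHX9 and 15.7 to 23.0 in scrambled libraries, with CD3E at 0 in all 12 and CD14 at 42.1, 44.2 and 56.4 with YK-4-279, against 0, 9.9 and 12.8 in DMSO (log2 3.18 ± 0.89, adjusted p = 0.0315). The 4 fibroblast markers summed to 2520 to 2935 counts in siDHX9 and 1835 to 2197 in scrambled libraries, and to 1834 to 1984 with YK-4-279 and 1764 to 1863 in DMSO. The part of the fibroblast and leukocyte markers in the results was not tested.

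The starts of the genes whose results are described most closely are given first, from RefSeq on the plus or minus strand of GRCh38.p14. Each window has 10 bases before the annotated start and 20 from it, 5′ to 3′, and capitals mark the unbroken run of C and T that begins at the start. RPL28 changed most with YK-4-279. RPL10, RPS27, RPL39 and RPL41 changed most between siDHX9 and scrambled libraries. RPLP0 is the most abundant member, and RPL36AL and RPL4 are the 2 that moved least with the others or least between the transfected groups.
RPL28 (chr19:55385922-55385951, plus strand): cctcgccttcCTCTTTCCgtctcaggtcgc
RPL10 (chrX:154398367-154398396, plus strand): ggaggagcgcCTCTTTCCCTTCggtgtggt
RPS27 (chr1:153990752-153990781, plus strand): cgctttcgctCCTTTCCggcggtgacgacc
RPL39 (chrX:119791611-119791640, minus strand): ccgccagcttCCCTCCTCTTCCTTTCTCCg
RPL41 (chr12:56116623-56116652, plus strand): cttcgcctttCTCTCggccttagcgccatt
RPLP0 (chr12:120201092-120201121, minus strand): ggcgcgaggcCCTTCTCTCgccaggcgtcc
RPL36AL (chr14:49620607-49620636, minus strand): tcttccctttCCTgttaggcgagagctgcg
RPL4 (chr15:66504836-66504865, minus strand): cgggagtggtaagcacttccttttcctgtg

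The 6 genes from RPL28 to RPLP0 have a run that opens with C at the annotated start, 19 bases long in RPL39 and 5 in RPL41. RPL10 has 3 annotated starts, and the other two, not shown, have runs of 0 and 2 bases. In RPL36AL the run at the start has 3 bases, and RPL4 has none at the annotated position, although a run of C and T lies a few bases further in. A start at C followed by at least 4 bases that are C or T, read on the transcribed sense only, was found in 46 of the 63 members with a RefSeq window (73.0%). The same start was found in 7.4% of the 10165 tested genes with a window and in 5.1% of all 27305 genes of the table. This is a match of letters at annotated starts and not a measured cap site. The 46 members with such a start had a median log2 change of 0.28 for siDHX9 against scrambled and the 17 without it 0.24, and with YK-4-279 against DMSO the medians were 0.07 and 0.04.

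Members took 15.26 to 18.67% of all reads, and the scrambled libraries stood lowest. Their summed share was 17.02, 17.34 and 18.67% of reads in siDHX9 libraries, against 15.26, 15.44 and 15.6% in scrambled libraries. The difference of 2.24 percentage points separated all 3 siDHX9 from all 3 scrambled libraries (exact two-sided permutation p = 0.1, the smallest that 3 against 3 allow). With YK-4-279 the share was 15.76, 17.15 and 16.81%, against 16.87, 17.22 and 16.62% in DMSO, so these groups overlapped (difference −0.33 points, exact two-sided permutation p = 0.6). Both subunits did the same: large-subunit genes took 10.12% ± 0.497 in siDHX9 and 8.869% ± 0.0857 in scrambled libraries, and small-subunit genes 7.554% ± 0.38 and 6.566% ± 0.0872 (SD, n = 3). Ribosomal RNA accounted for 2.71% ± 0.915 of the siDHX9 reads and 4.09% ± 0.963 of the scrambled reads, and 8.79% ± 1.07 under the drug, against 5.19% ± 0.244 in DMSO (SD, n = 3). Leaving ribosomal RNA out of the total gave a members' share of 18.17% ± 0.901 in siDHX9 and 16.09% ± 0.0854 in scrambled libraries, and 18.17% ± 0.586 under the drug, against 17.83% ± 0.298 in DMSO (SD, n = 3).

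**Figure D1:**
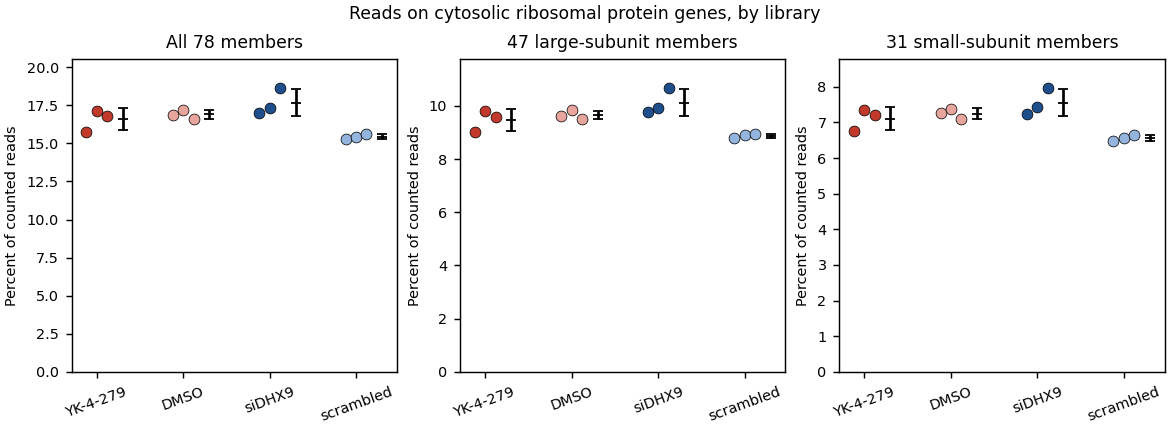
Percent of counted reads on all 78 members, on 47 large-subunit members and on 31 small-subunit members (vertical axes from 0), with a point per library and a bar for mean ± SD (n = 3). The 3 scrambled libraries lie between 15.26 and 15.6% for all members, below all other libraries.

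Members' normalised levels averaged between 17626 counts for RPL36AL and 291748 for RPLP0 over the 12 libraries, with a median of 94902. They moved together from library to library: the Pearson correlation of a member's log2 level with the mean of all other members over the 12 libraries was 0.992 for RPL37A, 0.988 for RPS18, 0.983 for RPL32 and 0.981 for RPL27A. At the other end stood RPL36AL at 0.404, RPS13 at 0.722 and RPL28 at 0.739. These values describe 12 libraries that share depth, handling and base composition within groups, and carry no test. The median member lay 0.26 above its own 12-library mean (log2) in siDHX9 replicate 3, where 78 of 78 members were above, and 0.22, 0.23 and 0.14 below it in the 3 scrambled libraries (−0.22, −0.23 and −0.14). Of the 78 members 62 had their highest value of all 12 libraries in siDHX9 replicate 3, and 72 had their lowest in scrambled replicates 1 or 2, 31 and 41 of them.

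**Figure D2:**
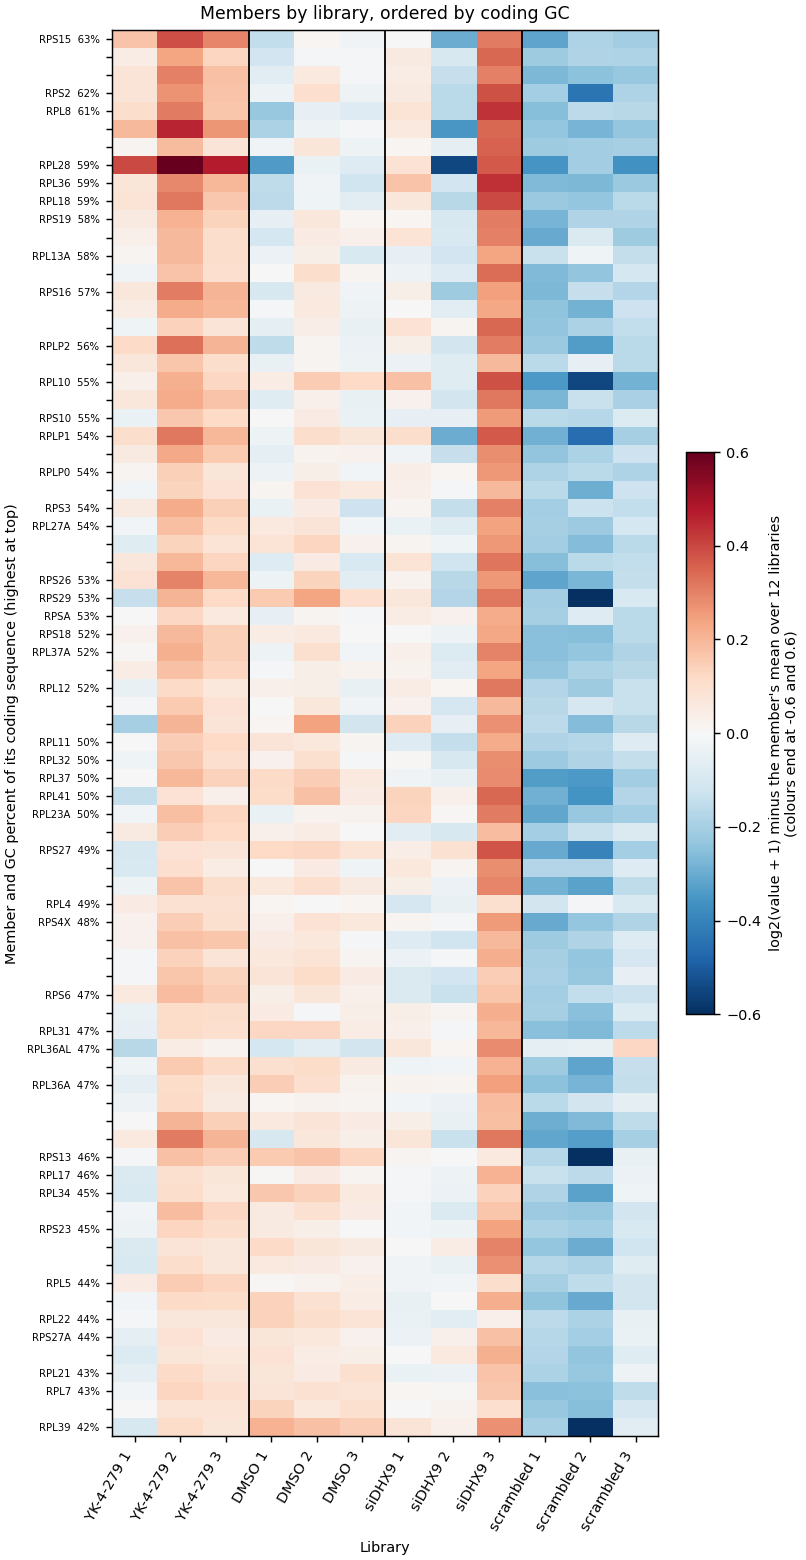
Each of the 78 rows is a member, labelled where the text describes it, ordered by the GC percent of its coding sequence from the highest at the top, and each column a library. Colour gives log2(value + 1) minus the member's mean over 12 libraries, red above and blue below. The 3 scrambled columns are blue in nearly every row, siDHX9 replicate 3 is red in 78 of 78, and siDHX9 replicate 2 and DMSO replicate 1 turn blue toward the top.

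The first comparison asked what YK-4-279 did to these genes in cells held 16 hours with the drug. RPL28, a large-subunit protein that budding yeast lacks, was the only member that rose, by 1.56-fold, and no member fell. The other 77 did not pass the test. So 1 of 78 members was higher (1.28%), beside 7.33% of all tested genes, and 0 of 78 lower, beside 6.49% of all tested genes, in limma. EdgeR and DESeq2 each called 1 higher and 0 lower, where 6.6% and 8.91% of all tested genes were higher. The members' median log2 change was 0.06, and that of all tested genes 0.02. The count was 7 without siDHX9 replicate 2 and 8 without siDHX9 replicate 3, which enter the shared estimate of spread, beside 11.2% and 10.1% of all tested genes higher in those fits.

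RPL28 (hg19 chr19:55895804-55903449) had 66128, 76525 and 69633 counts with YK-4-279, against 39683, 48910 and 47732 in DMSO. All 3 treated libraries were above all 3 controls (log2 0.64 ± 0.17, adjusted p = 0.0229). In siDHX9 libraries it had 53404, 34445 and 64924 counts, against 39409, 43492 and 39124 in scrambled libraries (log2 0.28 ± 0.17, adjusted p = 0.264), so siDHX9 replicate 2 lay below all scrambled libraries and replicates 1 and 3 above. The rise with YK-4-279 was lost without DMSO replicate 1 (adjusted p = 0.101), without YK-4-279 replicate 2 (0.0928) and without YK-4-279 replicate 3 (0.062).

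Further members with large values under the drug did not pass the test. RPS15, at the decoding side of the small subunit, had 74347, 86294 and 80825 counts with YK-4-279, against 59649, 66635 and 65135 in DMSO (log2 0.33 ± 0.12, adjusted p = 0.0746). RPL8 and RPL36 had log2 changes of 0.31 ± 0.12 and 0.28 ± 0.11 (adjusted p = 0.0878 and 0.0964). For each of these 3 genes the 3 treated libraries lay above the 3 DMSO libraries, which held for 19 of the 78 members and for 23.2% of all tested genes. At the lower end RPL39, RPL41, RPS29, RPL34 and RPS27 had log2 changes of −0.15, −0.12, −0.10, −0.09 and −0.09, with adjusted p values of 0.397 to 0.661. All 3 libraries lay below all 3 controls for RPL39 and RPL22, 2 of 78 members, beside 20.4% of all tested genes.

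Within the ribosome, none of the groups examined by position or function had a member that passed with the drug, and RPL28 belongs to none of them. The P stalk recruits elongation factors and consists of RPLP0, RPLP1 and RPLP2 on a base next to RPL12, and 0 of these 4 passed (median log2 0.12, from 0.04 for RPL12 to 0.27 for RPLP2). RPLP0 had 293840, 320795 and 305188 counts with YK-4-279, against 284658, 298054 and 287671 in DMSO (log2 0.08 ± 0.07, adjusted p = 0.496). RPL5 and RPL11 had log2 changes of 0.09 ± 0.06 and 0.04 ± 0.09. Of 4 proteins near mRNA entry and decoding, RPS2, RPS3, RPS15 and RPS23, 0 passed (median 0.17), and of 7 around the exit of the peptide tunnel 0 passed (median 0.00). Of 10 genes mutated in Diamond-Blackfan anaemia, a failure of red cell production caused by ribosomal protein loss, 0 passed (median 0.03). RPS19, the first of these to be found, had a log2 change of 0.12 ± 0.09 (adjusted p = 0.392).

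The second comparison set the siDHX9 libraries against the scrambled control. Of the members, 39 of 78 (50%) were higher in siDHX9 than in scrambled libraries and 0 were lower, beside 8.75% of all tested genes higher and 7.97% lower. The changes were small: the median log2 change was 0.28, a 1.21-fold difference, and ran from 0.05 for RPL4 to 0.55 for RPL10. All 78 values were above 0, whereas 49.6% of all tested genes were, and their median was 0.00. In 54 of the 78 the 3 siDHX9 libraries lay above the 3 scrambled libraries, beside 14.9% of all tested genes, and in 0 did they lie below, beside 14.4%. EdgeR called 46 members (8.91% of all tested genes higher) and DESeq2 48 (11%), all higher.

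RPL10, which joins the large subunit late in its assembly (hg19 chrX:153626406-153630680), had 80588, 67707 and 92832 counts in siDHX9 libraries, against 56135, 48765 and 58582 in scrambled libraries. The groups did not overlap (log2 0.55 ± 0.10, a rise of 1.47-fold, adjusted p = 0.00357). RPS27, a zinc-binding protein of the small subunit whose entry overlaps SLC39A1, had 87239, 90465 and 110389 counts in siDHX9 libraries, against 68872, 64434 and 73659 in scrambled libraries (log2 0.47 ± 0.09, adjusted p = 0.00379). RPL41, the smallest member with a coding sequence of 78 bases, had 211506, 197164 and 244920 counts in siDHX9 libraries, against 158158, 150706 and 170961 in scrambled libraries (log2 0.44 ± 0.09, adjusted p = 0.00536). Each of these 3 genes had its highest value in siDHX9 replicate 3 and its lowest in scrambled replicate 2. RPL10, RPS27, RPL41 and RPL23A were the 4 called members whose adjusted p stayed under 0.05 without any 1 of the 12 libraries.

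**Figure D3:**
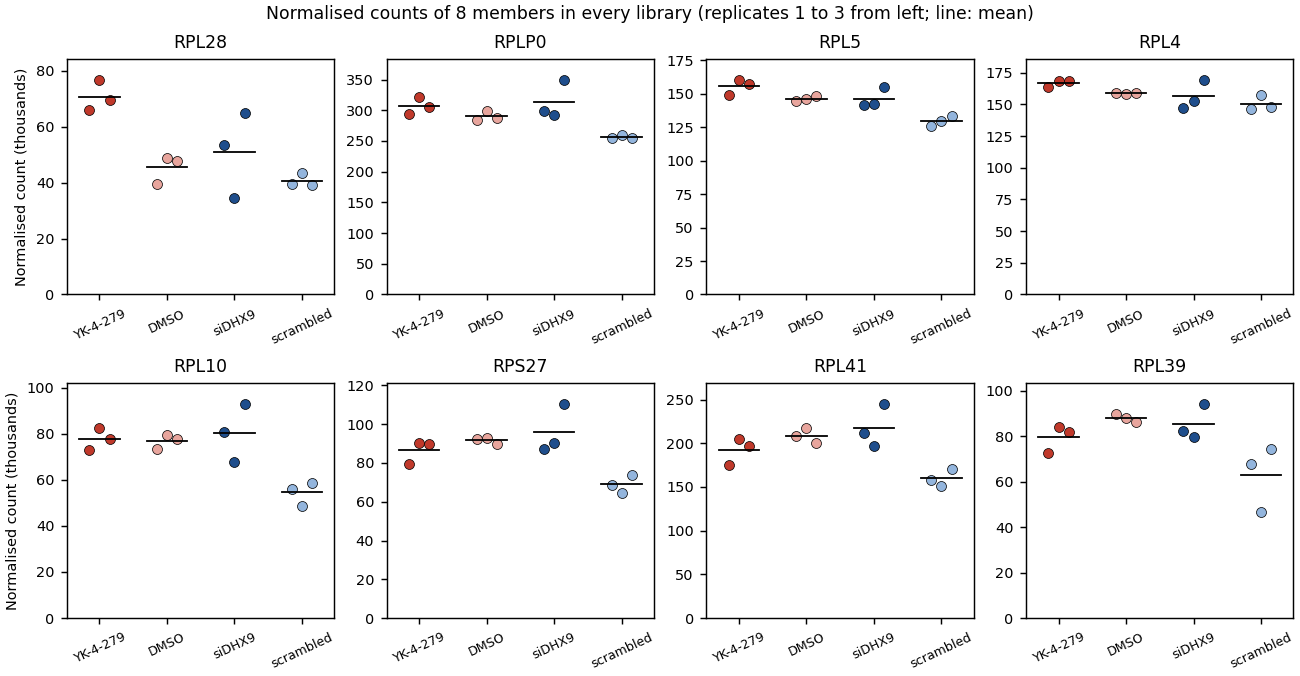
Normalised counts, on axes that start at 0, of 8 members in each library, with a line at each group's mean (n = 3). RPL28 is highest with YK-4-279, while RPL10, RPS27, RPL41 and RPL39 are lowest in scrambled libraries, and RPL4 differs little between groups.

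RPL39, which lines the peptide tunnel, had 82049, 79406 and 94046 counts in siDHX9 libraries, against 67705, 46821 and 74346 in scrambled libraries (log2 0.46 ± 0.13, adjusted p = 0.0315). Its low value in scrambled replicate 2 was shared by RPS13, at 56662 beside 78268 and 85441 in scrambled replicates 1 and 3, and by RPS29, at 23070 beside 30206 and 32764. RPL39 lost its call without scrambled replicate 2, siDHX9 replicate 1 or siDHX9 replicate 3, with an adjusted p of at most 0.107 over the fits that left out 1 library. RPL36, RPL23A, RPL37 and RPS2 rose by 1.34-fold, 1.32-fold, 1.29-fold and 1.29-fold. RPL23A, the docking site for factors at the tunnel exit, had 79770, 73290 and 90568 counts in siDHX9 libraries, against 58756, 62353 and 63360 in scrambled libraries.

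Of the 4 P-stalk genes 3 rose in siDHX9 libraries (median log2 0.31). RPLP0 had 298964, 292610 and 348422 counts in siDHX9 libraries, against 255570, 259882 and 255317 in scrambled libraries (log2 0.28 ± 0.07, adjusted p = 0.0188). RPLP2 and RPL12 also rose (log2 0.32 ± 0.10 and 0.30 ± 0.08), while RPLP1, at log2 0.37 ± 0.13 with an adjusted p of 0.0623, had siDHX9 replicate 2 (90520 counts) below scrambled replicates 1 and 3. Around the tunnel exit 4 of 7 rose (median 0.30). Neither 5S RNP protein passed the test: RPL5 had 141917, 142302 and 154946 counts in siDHX9 libraries, against 125489, 129812 and 133679 in scrambled libraries (log2 0.17 ± 0.06, adjusted p = 0.0642). RPL11 had a log2 change of 0.14 ± 0.09 (adjusted p = 0.257).

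On the small subunit 18 of 31 members rose (median 0.28) and on the large subunit 21 of 47 (median 0.27). Of the 4 proteins near mRNA entry and decoding 1 rose, RPS2 (log2 0.37 ± 0.12, adjusted p = 0.044), and the other 3 had log2 changes of 0.22 to 0.24. RPSA, which is also known as a laminin receptor precursor, rose (log2 0.24 ± 0.07, adjusted p = 0.0283), and so did RPS4X (0.33 ± 0.07, adjusted p = 0.0113) and RPS19 (0.29 ± 0.09, adjusted p = 0.0438). RPS6, the phosphorylated readout of mTOR signalling, had a log2 change of 0.14 ± 0.08 (adjusted p = 0.211), and RPS27A, made as a fusion with ubiquitin, 0.20 ± 0.07 (adjusted p = 0.0753). Of 10 Diamond-Blackfan anaemia genes 4 rose (median 0.25). RPS26 had a log2 change of 0.28 ± 0.10 (adjusted p = 0.0665). RPL7, of the large subunit, rose (0.27 ± 0.07, adjusted p = 0.0143), with a log2 change of −0.01 under the drug.

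RPL4 and RPL22 were at the low end. RPL4 had 147310, 152946 and 168875 counts in siDHX9 libraries, against 146392, 157139 and 147977 in scrambled libraries (log2 0.05 ± 0.06, adjusted p = 0.589). RPL22, which also binds RNAs outside the ribosome, had 68914, 67871 and 72424 counts in siDHX9 libraries, against 63527, 62158 and 68697 in scrambled libraries (log2 0.11 ± 0.06, adjusted p = 0.237). Its paralog RPL22L1, outside the 78, rose in siDHX9 libraries (log2 0.49 ± 0.11, adjusted p = 0.00921) and fell with YK-4-279 (log2 −0.39 ± 0.11, adjusted p = 0.0302). RPL22L1 had 3777, 4048 and 3803 counts in siDHX9 libraries, against 2884, 2263 and 3206 in scrambled libraries, and 2627, 2982 and 2776 with YK-4-279, against 3765, 3469 and 3730 in DMSO. A further paralog, RPL39L, rose in siDHX9 libraries as RPL39 did (log2 0.49 ± 0.13, adjusted p = 0.025).

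The count of members that rose rested on the scrambled libraries and on siDHX9 replicate 3. It was 5 without scrambled replicate 1, or 6.41% of members beside 4.75% of all tested genes higher in that fit. It was 12 without scrambled replicate 2 (5.33% of all tested genes higher), 16 without siDHX9 replicate 3 (4.62%), 24 without siDHX9 replicate 1 (4.91%) and 61 without siDHX9 replicate 2 (16.1%). A fit of the siDHX9 and scrambled libraries alone gave 1 of 78 (1.28%, beside 2.07%). The main fit shares its estimate of spread over all groups, although replicates differed more in the transfected groups than in the drug arm. With reads of ribosomal RNA left out of the scaling the count was 42 (6.15%).

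**Figure D4:**
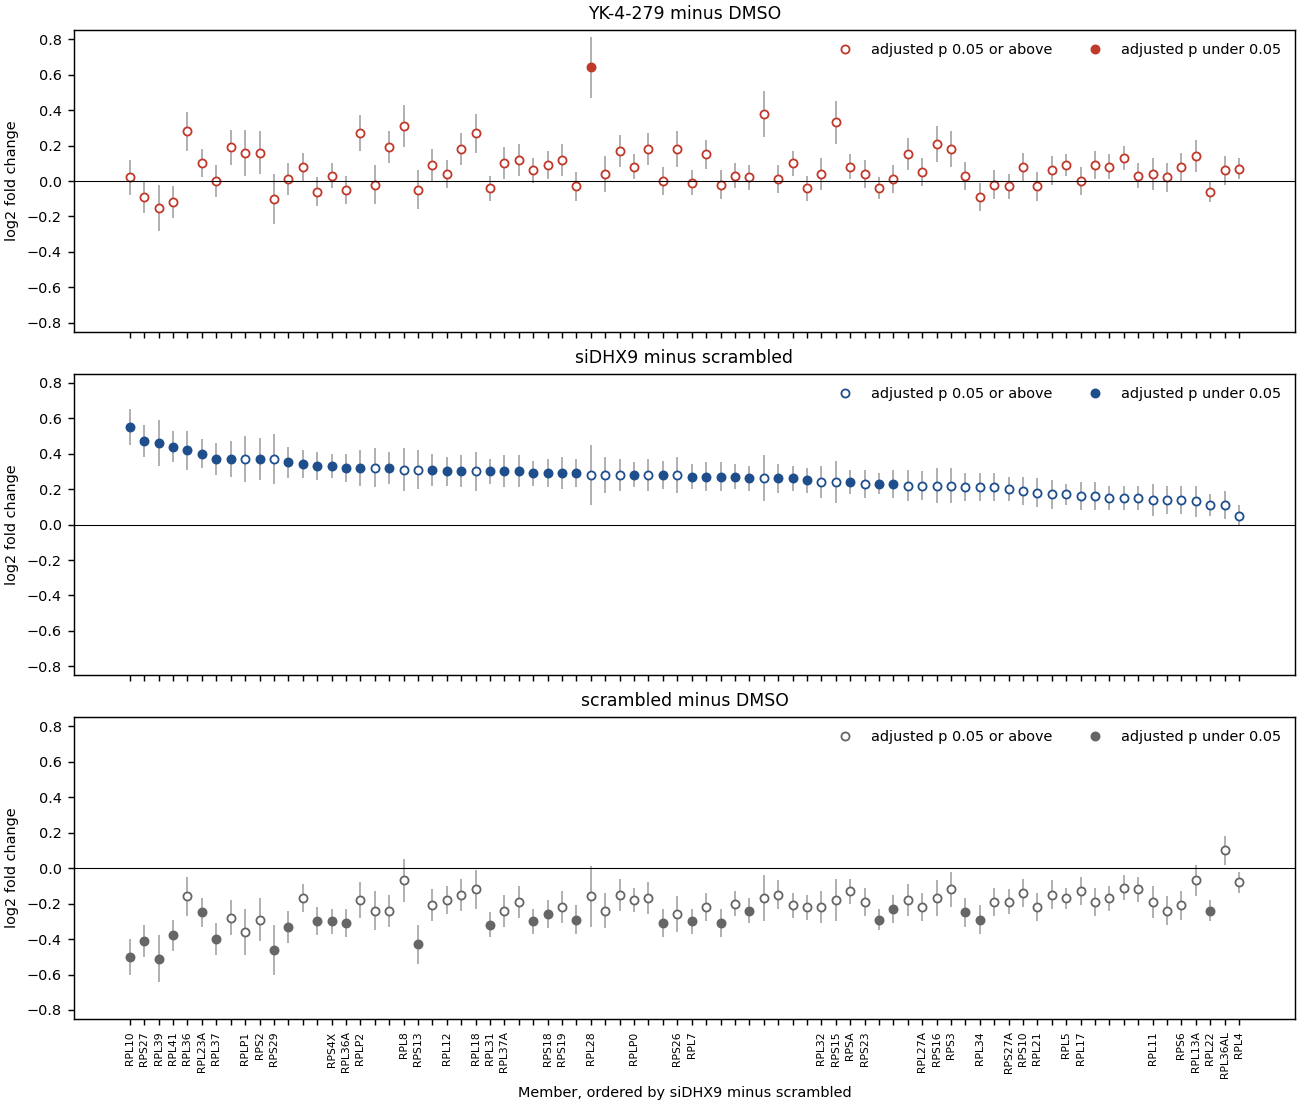
Log2 fold change ± SE of the 78 members for YK-4-279 minus DMSO (top), siDHX9 minus scrambled (middle) and scrambled minus DMSO (bottom), ordered by the middle panel and labelled where the text describes the member. Filled points have an adjusted p under 0.05, with 1 in the top panel, 39 in the middle and 25 in the bottom. The middle and bottom panels share the scrambled libraries.

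The scrambled and DMSO groups are both controls, and setting them side by side showed where the transfected groups lay. The members' mean was lowest of the 4 groups in scrambled libraries for 77 of 78 members, RPL36AL being the exception. Scrambled against DMSO, 25 members were lower (32.1%) and 0 higher, beside 9.22% of all tested genes lower and 9.7% higher, with a median log2 change of −0.22 for members and 0.02 for all tested genes. RPL39, RPL10, RPS29, RPS13 and RPS27 had the lowest values (−0.51, −0.50, −0.46, −0.43 and −0.41). Of 78 members 73 had all 3 scrambled libraries below all 3 DMSO libraries, beside 18.8% of all tested genes, and 1 had all 3 above, beside 22.0%. The count of lower members was 11, 7 and 13 without DMSO replicates 1, 2 and 3, beside 6.28%, 4.99% and 5.29% of all tested genes lower. It was 10 and 11 without scrambled replicates 1 and 2 (5.67% and 5.76%), and 38 and 54 without siDHX9 replicates 2 and 3 (11.9% and 11.6%).

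SiDHX9 libraries against DMSO gave 0 called members in limma, beside 8.3% of all tested genes higher and 7.33% lower. EdgeR and DESeq2 also called 0, where they called 16.0% and 19.8% of all tested genes. The median log2 change was 0.03. RPL10 averaged 80376 ± 12600 counts in siDHX9, 54494 ± 5110 in scrambled and 76726 ± 2970 in DMSO libraries (SD, n = 3). These 3 comparisons share libraries, so their changes are not separate evidence, and the effect of transfection cannot be told apart from that of time and handling between the DMSO and scrambled groups. The genes ASNS, CHAC1, DDIT3 and TRIB3, which answer a shortage of amino acids and were chosen with their levels known, are given beside the members. Their mean log2 level stood above DMSO by 0.84, 0.29 and 0.83 in siDHX9 replicates 1 to 3 and by 2.61, 2.44 and 0.94 in scrambled replicates 1 to 3. The members' median stood at −0.03, −0.09 and 0.22 in siDHX9 and at −0.25, −0.24 and −0.16 in scrambled libraries on the same scale. Scrambled replicates 1 and 2 had the highest levels of the 4 genes and the lowest medians of the members. SiDHX9 replicates 1 and 3 and scrambled replicate 3 had similar levels of the 4 genes, with members' medians of −0.03, 0.22 and −0.16. With YK-4-279 the 4 genes stood at −0.05, 0.31 and 0.12 in replicates 1 to 3, and the members' median at −0.04, 0.13 and 0.07. The part of these genes in the result was not tested.

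The third comparison set the drug's change against DMSO beside the change of siDHX9 against scrambled libraries. The difference, YK-4-279 minus DMSO less siDHX9 minus scrambled, was called for 5 of 78 members, all lower (6.41%), beside 5.29% of all tested genes lower and 4.4% higher. These shares are near each other, so the count itself says little of the members. RPL41 had a difference of −0.56 ± 0.12 (adjusted p = 0.0132), RPS27 −0.56 ± 0.13 (0.0139), RPL10 −0.54 ± 0.15 (0.0336), RPL36A −0.37 ± 0.11 (0.0494) and RPL31 −0.34 ± 0.10 (0.0478). For all 5 the drug's own log2 change lay between −0.12 and 0.02 and did not pass, while each rose in siDHX9 libraries. RPL36A shares its entry with HNRNPH2, and its value covers both. The count was 2 without scrambled replicate 1 or 2, YK-4-279 replicate 1 or 3, or any DMSO library, 3 without YK-4-279 replicate 2 or siDHX9 replicate 1, 10 without scrambled replicate 3 and 13 without siDHX9 replicate 2, beside 3.07 to 7.09% of all tested genes lower over the fits without 1 library.

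Among the comparisons, the members' changes followed base composition most closely for YK-4-279 against DMSO. The GC content of their coding sequences spans 41.7% in RPL39 to 62.6% in RPS15. Across the 78 members the log2 change with YK-4-279 had a Pearson correlation of 0.71 with coding GC (Spearman 0.73), beside 0.37 over 12154 tested genes with a coding sequence. The 26 members with the highest coding GC (54 to 62.6%) had a median log2 change of 0.15, and all 26 values were above 0. The 26 with the lowest (41.7 to 47.4%) had a median of −0.01, with 11 above 0. These correlations run across genes, which are not independent replicates, and carry no test.

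For siDHX9 against scrambled the correlation with coding GC was 0.22, and with the log2 length of the coding sequence −0.44, beside 0.30 and −0.17 over all genes with a coding sequence. For scrambled against DMSO the values were 0.27 and 0.49. The correlation of a member's deviation with coding GC differed in sign within both transfected groups. It was 0.35, −0.59 and 0.67 in siDHX9 replicates 1 to 3, and −0.31, 0.14 and −0.62 in scrambled libraries. With YK-4-279 it was positive in all 3 libraries (0.57, 0.68 and 0.52), and in DMSO negative in all 3 (−0.73, −0.30 and −0.56). Among the 26 members of highest GC the median deviation was −0.11 in siDHX9 replicate 2 and 0.31 in replicate 3.

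With each library corrected for a smooth trend of level on coding GC over the 12154 genes, 1 member was called with YK-4-279 (5.63% of all genes in that fit were higher) and 44 higher for siDHX9 against scrambled (10.2%). RPL28 was that member, with a log2 change of 0.47 (adjusted p = 0.0288), and after the correction the correlation with coding GC across members was −0.12 for the drug and −0.58 for siDHX9 against scrambled. This fit was chosen after the data were seen. Why coding GC and the changes moved together was not tested.

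**Figure D5:**
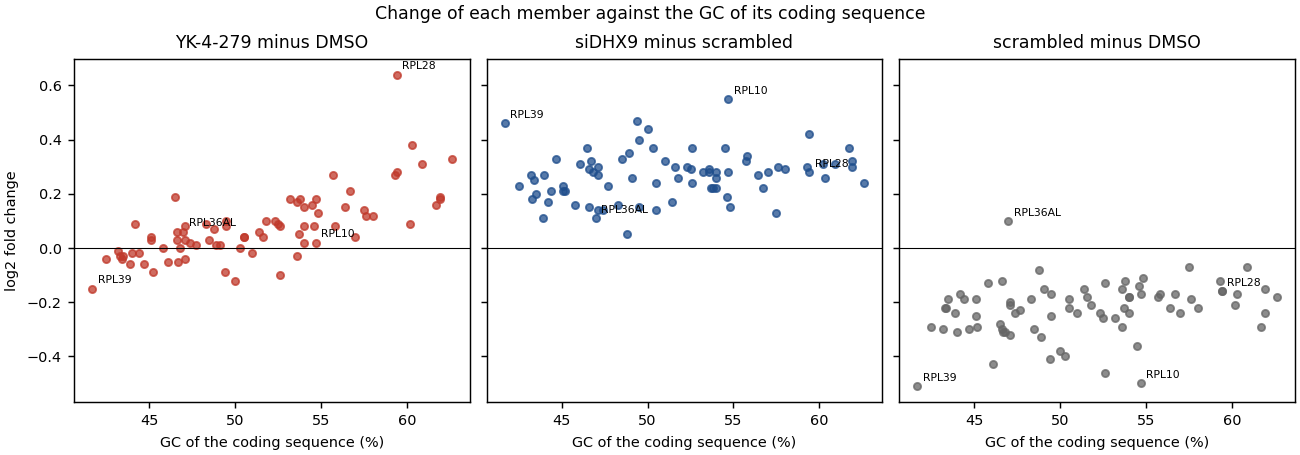
Log2 fold change of each of the 78 members against the GC percent of its coding sequence, with a panel for YK-4-279 minus DMSO, then siDHX9 minus scrambled, then scrambled minus DMSO. The points climb to the right in the first panel (Pearson 0.71), lie above 0 throughout the second (0.22) and below 0 except RPL36AL in the last (0.27).

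Members whose entry names another gene were RPL13A (with RPL13AP5), RPL17 (with C18orf32), RPL21 (with RPL21P28), RPL36A (with HNRNPH2) and RPS10 (with NUDT3). Their log2 changes for siDHX9 against scrambled were 0.13, 0.16, 0.18, 0.32 and 0.19, and RPL36A was the one called. RPL36AL, an intronless relative of RPL36A that lies within the stretch of RPS29, had 18427, 17721 and 21382 counts in siDHX9 libraries, against 16861, 17044 and 19129 in scrambled libraries (log2 0.11 ± 0.08, adjusted p = 0.362). It was the member for which scrambled libraries were above DMSO (log2 0.10 ± 0.08, adjusted p = 0.429). In all 24 members overlap another expressed named gene, 4 of them a gene with at least 0.1 of their own level, such as FTL over RPL18, and reads of overlapping genes or of processed copies could have been split. The entries with pseudogene symbols took 0.0128 to 0.0183% of reads. In 17 members the stretch holds a small nucleolar RNA, and 6 of these rose in siDHX9 libraries (median log2 0.23) against 33 of the other 61 (median 0.28).

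Other genes of the translation machinery were counted against the same shares of all tested genes, 8.75% higher and 7.97% lower in siDHX9 libraries, and 7.33% higher and 6.49% lower with YK-4-279. Of 17 measured genes for elongation factors and other TOP mRNAs 5 rose in siDHX9 libraries and 0 fell (median log2 0.16). Among them were EEF1A1, which carries aminoacyl-tRNA to the ribosome (log2 0.22 ± 0.07, adjusted p = 0.0368), EEF1D (0.34 ± 0.09, adjusted p = 0.0261) and TPT1 (0.30 ± 0.06, adjusted p = 0.00659). Against DMSO, 0 of the 17 were higher and 1 lower in siDHX9 libraries (median 0.05), beside 8.3% and 7.33% of all tested genes. In scrambled libraries 1 was higher and 3 lower than in DMSO (median −0.11), beside 9.7% and 9.22%. With YK-4-279 4 of the 17 rose, EIF3F by 1.5-fold, EEF2, the translocase, by 1.42-fold, PABPC1 by 1.26-fold and EIF3H by 1.15-fold, with a median log2 change of 0.03. EEF2 had 113046, 117114 and 109223 counts with YK-4-279, against 74465, 78256 and 87336 in DMSO, and PABPC1 had 159193, 159478 and 157290, against 125521, 123225 and 127598.

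Of 30 ribosome biogenesis genes 5 rose and 2 fell in siDHX9 libraries (median log2 0.11), with RRS1 up 1.42-fold although its groups overlapped, and with WDR12 and RRN3, the factor that recruits RNA polymerase I, down 1.34-fold and 1.63-fold. With YK-4-279 1 rose and 1 fell (median 0.05). Against DMSO, 0 of the 30 were higher and 6 lower in siDHX9 libraries (median −0.10), beside 8.3% and 7.33% of all tested genes. In scrambled libraries 0 were higher and 10 lower than in DMSO (median −0.20), beside 9.7% and 9.22%. Of 76 mitochondrial ribosomal protein genes, which serve the ribosome of the mitochondrion, 7 rose and 2 fell in siDHX9 libraries (median 0.09), and 2 rose and 1 fell with YK-4-279 (median 0.03). Of 17 genes of mTOR and LARP1 control 1 rose, EIF4EBP2 (1.57-fold, adjusted p = 8.46e-05), and 2 fell, TSC1 and RPTOR (1.68-fold and 1.36-fold), in siDHX9 against scrambled libraries. EIF4EBP2 had 19421, 18117 and 17751 counts in siDHX9 and 11969, 10651 and 12738 in scrambled libraries. In DMSO it had 17343, 16682 and 17357, so siDHX9 lay nearer to DMSO than scrambled did. With YK-4-279 RPS6KB2 rose by 1.3-fold and RICTOR fell by 1.5-fold. Of 5 measured partners of the 5S RNP and p53, RPS19BP1 rose and MDM4 fell in siDHX9 libraries, and HEATR3, which carries RPL5 to the nucleus, fell by 1.59-fold with YK-4-279 (adjusted p = 0.00395).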

How the data were processed

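RNA was sequenced from 12 libraries of TC-71 cells. The deposited signal values are read counts that the authors scaled per library; the submitters' processing notes name DESeq and STAR 2.4.0, and per the file headers coordinates are on hg19. The sources used here do not say whether counting used strand. Every checked value (100%) was a whole multiple, within 0.1 reads, of its library's step, so reads were recovered for depth, edgeR 4.0.16 and DESeq2 1.42.0. Replicates differed beyond counting noise, and unequally by group. Pairs of siDHX9 replicates had a chi-square per degree of freedom from 29.18 up to 91.43, and scrambled pairs from 30.2 up to 40.84. The values were lower for DMSO pairs (6.87 to 18.12) and YK-4-279 pairs (8.36 to 24.11).

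Values of named genes averaging at least 10 (14225) were put on the log2(value + 1) scale. Limma 3.58.1 in R 4.3.3 fitted 1 mean per group over the 12 libraries, with its trend option, which left 8 residual degrees of freedom. Unnamed entries above the minimum (3172) stayed out; they took 3.87 to 4.86% of reads. Coding GC came from GENCODE 29 transcripts and start windows from RefSeq, matched by symbol. The fits were tested on simulated data. Alternatives changed the added value, minimum, scaling, model, tool and libraries.

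The members and lists were chosen with earlier results of these data known. Named members were, per comparison and direction, the 8 called with the largest change, or up to 5 as values where fewer were called, beside 18 fixed genes, those in shared entries and up to 4 called genes of each list. Some members that the rule selects are not reported here. RPS3, RPS13 and RPS23 were also named after their values were seen.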

Additional observations from a re-analysis of the deposited data

Results flagged for a closer look

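For 5 members the effect of YK-4-279 against DMSO differed from that of siDHX9 against scrambled by a test of the difference itself, in limma at an adjusted p under 0.05. All 5 were lower, 6.41% of members beside 5.29% of all tested genes lower, so the count itself says little of the members. The log2 differences were −0.56 for RPL41, −0.56 for RPS27, −0.54 for RPL10, −0.37 for RPL36A and −0.34 for RPL31. In RPL41 the siDHX9 effect was 0.44 ± 0.09 and the drug's −0.12 ± 0.09 (SE), and in RPS27 they were 0.47 ± 0.09 and −0.09 ± 0.09. In RPL10 the siDHX9 effect was 0.55 ± 0.10 and the drug's 0.02 ± 0.10. RPL41 and RPS27 kept an adjusted p under 0.05 without any 1 library. RPL10 lost it in 8 of 12 such fits, and RPL36A and RPL31 in 9 of 12. For each of the 5 the scrambled libraries were also below DMSO (log2 −0.31 to −0.50).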

How the results depend on the processing

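Depth was high for all members, so counting error is small beside the spread between cultures; intervals of reads cover counting error only. Every median of the members kept its sign under all alternatives except for YK-4-279 against DMSO (−0.02 to 0.11) and siDHX9 against DMSO (−0.05 to 0.10). Of the single-gene results, RPLP0 with YK-4-279 reversed under quantile normalisation (−0.14). Over the alternatives for the 86 named-member results, 83 uncalled values had the other sign. Causes were not tested.

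Counts of called members follow, each with the percent of all tested genes called in that fit in brackets. For YK-4-279 against DMSO, 1 became 12 (9 higher, 3 lower) with quantile normalisation [14.4], 5 with scaling without ribosomal RNA [13.0], 21 (20 higher, 1 lower) on the 6 libraries alone [30.0], 0 with no trend [11.1], 11 without siDHX9 2 and siDHX9 3 [21.4], and 0 to 8 without 1 library [6.03 to 19.6]. For siDHX9 against scrambled, with percents of genes higher, 39 became 12 with no minimum [5.09], 16 with quantile normalisation [9.33], 1 on the 6 libraries alone [2.07], 14 with no trend [6.82], 6 without siDHX9 2 and siDHX9 3 [3.72], 0 without scrambled 1 and scrambled 2 [1.86], and 5 to 61 without 1 library [4.62 to 16.1]. For the difference, with percents of genes lower, 5 became 3 with 10 added before the log [5.36], 2 without a minimum [3.2] or a trend [4.21], 11 with TMM [6.01], 11 with TMM computed without members [6.2], 10 with quantile normalisation [6.52], 18 without ribosomal RNA [4.43], 11 in edgeR [6.01], 10 in DESeq2 [8.41], 3 without siDHX9 2 and siDHX9 3 [3.39], 0 without scrambled 1 and scrambled 2 [2.04], and 2 to 13 without 1 library [3.07 to 7.09]. For scrambled against DMSO, with percents of genes lower, 25 became 15 with no minimum [5.75], 40 with TMM computed without members [10.5], 52 on the 6 libraries alone [9.64], 14 with no trend [7.85], 38 in edgeR [9.85], 46 with the GC correction [12.5], 55 without siDHX9 2 and siDHX9 3 [12.7], 0 without scrambled 1 and scrambled 2 [1.7], and 7 to 54 without 1 library [4.99 to 11.9]. For siDHX9 against DMSO, 0 became 3 with quantile normalisation [15.9], 3 without ribosomal RNA [14.3] and 0 to 7 without 1 library [8.65 to 23.2]. The GC correction and the fits without 2 libraries were chosen after seeing the data. The main fit shares its estimate of spread over all groups, although transfected replicates differed more. Its adjusted p values may therefore be too small for siDHX9 against scrambled and too large for YK-4-279 against DMSO. The fits on the 6 libraries alone, which took spread from their own 2 groups, called 1 and 21 members.

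Same-numbered libraries did not deviate together (correlations of 0.117, 0.055 and −0.009 for YK-4-279 and DMSO, and 0.047, 0.06 and 0.078 for siDHX9 and scrambled). With the replicate block 1, 38, 4, 25 and 0 members were called in the 5 comparisons in the order above.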
